A study of Drosophila melanogaster with 3 samples.

Results

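The 93 protein-coding genes for cytosolic ribosomal proteins were examined in peak lists of CG2712, a Drosophila melanogaster protein profiled as a transcription factor. The members were the protein-coding genes of Ensembl release 115 whose symbol begins with RpL or RpS, together with sta, the fly gene for the small-subunit protein known elsewhere as RpSA. They were 54 large-subunit and 39 small-subunit genes among 13968 protein-coding genes. A gene was counted as having a summit in a list when the highest point of a listed peak lay within 500 bp of any of its transcript starts.

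Chromatin immunoprecipitation with sequencing (ChIP-seq), which recovers DNA bound by a protein, had been carried out with an anti-GFP antibody on whole embryos of mixed sex, 0 to 16 hours old. All 3 biological replicates, which form 1 group, came from a transgenic line carrying CG2712 fused at its C-terminus to eGFP. The embryos pooled all cell types and a wide span of ages, so a peak carries no information on where or when in the embryo it arose. There was no second genotype, stage or treatment, so the members were set against all protein-coding genes in the same lists.

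Cytosolic ribosomal proteins assemble with ribosomal RNA into the large and the small subunit, and the genes are transcribed at high and balanced rates in growing cells. In flies their promoters typically start transcription at a polypyrimidine initiator called the TCT element in place of the standard initiator, and the factors M1BP, Dref and Trf2 are known to act at many of them. Loss of a single copy of many of these genes gives the Minute phenotype, with slow development and short bristles. Several ribosomal proteins are encoded by duplicated genes in flies, and some of the extra copies are known from the germ line.

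The deposited data were 1 peak list per replicate, a list called on the pooled replicates and an IDR list, in which IDR stands for the irreproducible discovery rate used to compare replicates. The IDR list held 9789 peaks and was identical to the 9789 strongest peaks of the pooled list. The pooled list and the lists of replicates 1 and 2 held 30000 peaks on the chromosome arms, and that of replicate 3 held 29977. No read totals were at hand, so the depth behind a peak is unknown. Peak strength is the authors' signal value, whose scale may differ between replicates, and the replicates were therefore compared by rank, with rank 1 the strongest peak of a list.

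The sequences under the summits are shown first for 6 members, RpL34b and RpS3 as the strongest members of each subunit, and RpS25, RpL28, RpL27 and RpLP1 as examples with known promoter elements. Each run is 101 bases centred on the strongest IDR summit, written 5′ to 3′ on the strand of the gene, in RefSeq's sequence of assembly Release 6 (dm6). Capitals mark exact matches, on either strand, to the DNA replication-related element (DRE, TATCGATA, bound by Dref), to Motif 1 (GGTCACAC, bound by M1BP) and to the Motif 6 core (GGTATTTT). The windows were chr3R:9401333-9401433 on the minus strand for RpL34b, chr3R:23358578-23358678 on the plus strand for RpS3, chr3R:11216316-11216416 on the minus strand for RpS25, chr3L:3223002-3223102 on the minus strand for RpL28, chr3R:25685050-25685150 on the minus strand for RpL27, chr2L:419853-419953 on the plus strand for RpLP1.
RpL34b: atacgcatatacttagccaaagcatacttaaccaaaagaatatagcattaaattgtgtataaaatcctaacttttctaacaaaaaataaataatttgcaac
RpS3: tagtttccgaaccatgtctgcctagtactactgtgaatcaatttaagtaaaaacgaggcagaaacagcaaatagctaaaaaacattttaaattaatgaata
RpS25: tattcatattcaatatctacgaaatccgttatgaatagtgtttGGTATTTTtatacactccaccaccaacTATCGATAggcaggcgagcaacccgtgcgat
RpL28: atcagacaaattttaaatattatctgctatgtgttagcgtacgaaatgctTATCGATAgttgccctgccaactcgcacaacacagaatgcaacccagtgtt
RpL27: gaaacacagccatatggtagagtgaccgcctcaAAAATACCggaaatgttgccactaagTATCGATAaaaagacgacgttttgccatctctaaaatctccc
RpLP1: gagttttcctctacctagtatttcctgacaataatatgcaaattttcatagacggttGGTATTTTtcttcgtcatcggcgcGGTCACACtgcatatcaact

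RpS25 and RpL27 held a DRE and a Motif 6 core, RpL28 a DRE, and RpLP1 a Motif 6 core and Motif 1 close together. The windows of the strongest members, RpL34b and RpS3, held none of these elements.

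Most cytosolic ribosomal protein genes had a CG2712 summit at a start. In the IDR list 81 of 93 members (87.1%) had one, against 35.6% of all protein-coding genes. In the pooled list the count was 88 of 93 (94.6%), against 49.2% of all protein-coding genes. Among the 9789 strongest peaks of each replicate, 77 members in replicate 1, 80 in replicate 2 and 79 in replicate 3 had a summit. The corresponding backgrounds were 35.4%, 34.4% and 36.9% of all protein-coding genes. The members' share was thus 84.6 ± 1.64% (SD, n = 3), against 35.6 ± 1.26% for all protein-coding genes (SD, n = 3), and the gap was far larger than the spread between replicates. In the whole replicate lists, 88, 88 and 86 members had a summit, beside 49.2%, 50.7% and 51.8% of all protein-coding genes.

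The members' peaks were strong but not the strongest of the lists. The signal over the 81 members with an IDR summit had a median of 629.3 and quartiles of 383.7 and 1046.4, and ran between 212.8 and 2470.5. Over all 4973 protein-coding genes with an IDR summit the median was 474.2 and the highest value 40613.4. The members' ranks ran between 302 and 9490 with a median of 2853, against a median of 4137 for all protein-coding genes with a summit. Of the 81 members, 15 (18.5%) were in the first 1000 ranks, against 14.9% of all protein-coding genes with a summit. For the first 3000 ranks the shares were 51.9% of members and 38.0% of all protein-coding genes with a summit. When only the upper 4894 peaks of the IDR list were used, 55 members (59.1%) had a summit, against 20.6% of all protein-coding genes.

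**Figure D1:**
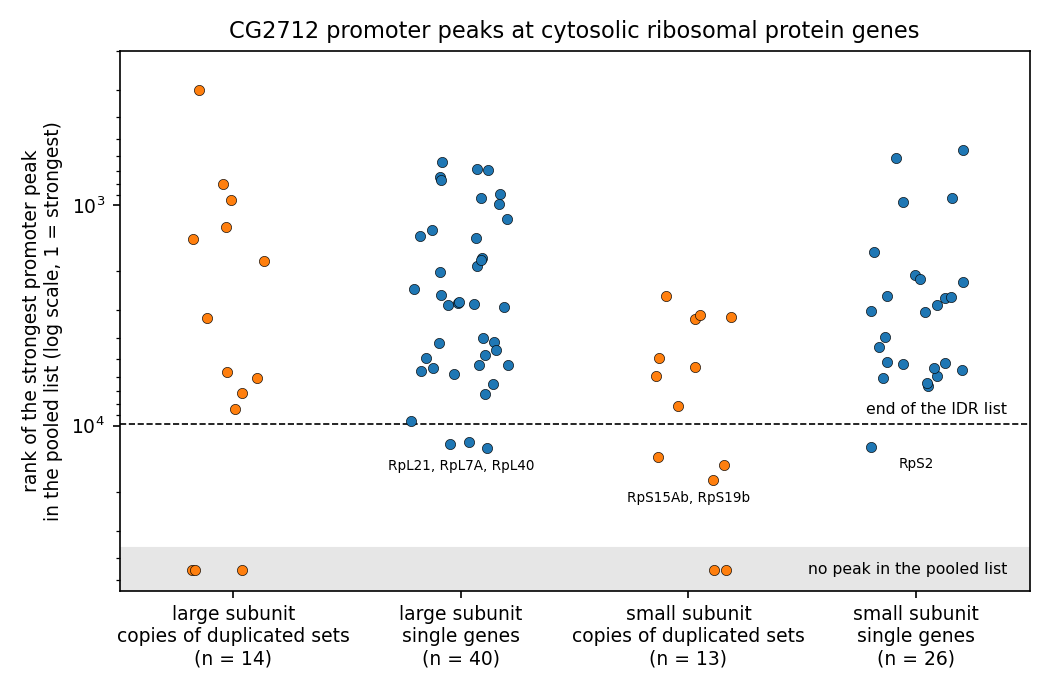
Rank of the strongest promoter peak in the pooled list (log scale, strongest at the top) for each of the 93 genes, by subunit and by whether the gene is a copy of a duplicated set (orange) or a single gene (blue). The dashed line is the end of the IDR list at rank 9789, and the grey band holds the 5 genes with no summit in the pooled list, which were all copies of duplicated sets. Sideways scatter carries no information, and names are given for most genes between the line and the band.

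The strongest large-subunit member was RpL34b, with a signal of 2470.5 at IDR rank 302 and ranks of 308, 295 and 344 in replicates 1, 2 and 3. Also among the 10 strongest of this subunit were RpL29 at rank 689, RpL23A at 695, whose protein lies at the exit of the peptide tunnel, RpL14 at 747 and RpL32 at 772, a common reference gene in fly expression studies. They further included RpL7 at rank 803, RpL19 at 893, RpL13A at 927 and RpL34a at 953. The lowest rank of any of the 10 in any replicate was 1193, for RpL19 in replicate 1.

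The strongest small-subunit member was RpS3, whose protein lines the channel through which mRNA enters. Its signal was 1806.9 at IDR rank 566, and it ranked 239 in replicate 1, 1262 in replicate 2 and 523 in replicate 3. RpS27 followed at rank 611, with ranks of 687, 723 and 484 in the replicates. RpS25 stood at rank 931, RpS20 at 968 and RpS21 at 1632. RpS27A, a gene for a fusion of ubiquitin with a ribosomal protein, stood at rank 2071. The 10 strongest of this subunit ended with RpS4 at 2170, RpS16 at 2239, RpS10b at 2573 and RpS3A at 2577, the single member on chromosome 4. The gene sta had a signal of 598.6 at rank 3045, with ranks of 3607, 3597 and 2339 in the replicates, close to the median of the members.

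The stalk of the large subunit, which recruits translation factors, is built of the P proteins. All 3 of its genes had an IDR summit, with RpLP0 at rank 1260, RpLP1 at 1775 and RpLP2 at 2020. RpLP1 was the least even of them, at ranks 3795, 1837 and 1043 in replicates 1, 2 and 3. RpL5 and RpL11, whose proteins carry the 5S ribosomal RNA, stood at ranks 5685 and 1154. RpS6, the substrate of the growth-regulated S6 kinase, stood at rank 5983 with its summit 460 bp upstream of the start, the farthest of all members.

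The subunits were then compared. In the IDR list 48 of 54 large-subunit genes (88.9%) and 33 of 39 small-subunit genes (84.6%) had a summit. Among the strongest peaks of the replicates the large-subunit share was 87.0%, 90.7% and 83.3%, against 76.9%, 79.5% and 87.2% for the small subunit. The large subunit was thus higher in replicates 1 and 2 and lower in replicate 3. The mean difference, large minus small, was 5.84 ± 8.41 percentage points (SD, n = 3), which was smaller than its spread (exact two-sided sign-flip permutation test, p = 0.5). Since 3 replicates allow no p below 0.25, the test could not have passed 0.05. Among single genes alone the IDR counts were 37 of 40 for the large subunit and 25 of 26 for the small subunit.

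The median rank was stronger for large-subunit than for small-subunit genes in every replicate, with copies of duplicated sets included. The median rank of large-subunit members with a summit was 2649, 2828 and 2216.5 in replicates 1, 2 and 3, against 3624, 4033 and 3394 for the small subunit. The log2 ratio of the medians, large over small, was −0.53 ± 0.08 (SD, n = 3), where a negative value means a stronger rank for the large subunit. It had the same sign in 3 of 3 replicates, with p = 0.25 in the exact two-sided sign-flip permutation test, the smallest value the test can give. In the IDR list the medians were 2655.5 for the large subunit and 3221 for the small subunit, and 11 of 48 against 4 of 33 members were in the first 1000 ranks. Single genes were 40 of the 54 large-subunit and 26 of the 39 small-subunit members, so the subunits also differ in duplicated copies. Ranks were not compared between the subunits over single genes alone.

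Summits lay close to the start. The strongest IDR summit of the members had a median position of −58 bp, where negative is upstream, with quartiles of −110 and −15 bp. For all protein-coding genes with a summit the median was −123 bp and the quartiles −208 and −49 bp. Of the 81 members 55 (67.9%) had the summit within 100 bp of the start, against 37.9% of all protein-coding genes with a summit. Only 6 members (7.41%) had it more than 200 bp away, against 28.5% of all protein-coding genes with a summit. The median was −63 bp over large-subunit and −36 bp over small-subunit members. In the whole replicate lists the members' medians were −76.5, −34 and −30 bp in replicates 1, 2 and 3, against −120, −109 and −103 bp for all protein-coding genes, so the members' summits were the nearer ones in each replicate, while replicate 1 placed both groups farther upstream than the other replicates did.

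**Figure D2:**
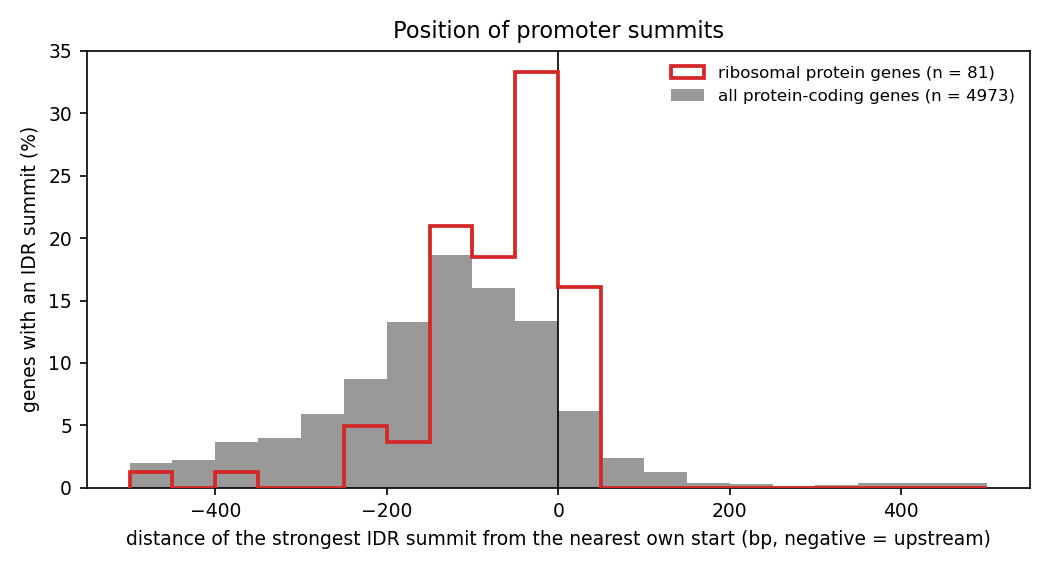
Share of genes, in percent, by distance of the strongest IDR summit from the nearest own transcript start in bins of 50 bp (negative is upstream), for the 81 ribosomal protein genes with a summit (red line) and all 4973 protein-coding genes with a summit (grey). The ribosomal protein genes gather just upstream of the start, with a median of −58 bp, against −123 bp for all protein-coding genes.

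The replicates ordered the members with an IDR summit alike, though the IDR list was itself derived from these replicates. The same values were not computed for all protein-coding genes. Of the 81 members with an IDR summit 78 had a summit in all 3 replicate lists, and over these 78 the Spearman correlation of ranks was 0.846 between replicates 1 and 2, 0.817 between 1 and 3 and 0.901 between 2 and 3, given as a description since the points share libraries. The ratio of the highest to the lowest of a member's replicate ranks had a median of 1.63 and quartiles of 1.39 and 1.98, and exceeded 2 for 19 members. The largest ratio, 5.41, was that of RpL15, the weakest member of the IDR list at rank 9490, with ranks of 3164, 9631 and 17110. For position, the summit nearest to the member's IDR summit was taken in each replicate. These summits spanned a median of 67 bp over the replicates and at most 304 bp. The strongest summits could lie farther apart, as for RpS6, at −460, 45 and −458 bp from its start in replicates 1, 2 and 3. Within the strongest peaks, 70 of the 93 members had a summit in all 3 replicates and 9 had one in none.

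The 12 members outside the IDR list fell into 4 single genes and 8 copies of duplicated sets. All of the 66 single genes had a summit in the pooled list, and 62 of them (93.9%) had one in the IDR list. The 4 single genes outside it had pooled ranks between 11892 and 12692, and the ratio of their highest to their lowest replicate rank was largest for RpS2, at 2.85, and smallest for RpL40, at 1.32. RpL21 was at pooled rank 11892, with ranks of 6443, 8830 and 12287 in replicates 1, 2 and 3. RpL7A was at pooled rank 12171, with replicate ranks of 7352, 10032 and 12644. RpS2 was at pooled rank 12449, with replicate ranks of 20884, 7319 and 9492. RpL40, also a ubiquitin fusion gene, was at pooled rank 12692, with replicate ranks of 13319, 10087 and 11985. The members just inside the end of the IDR list were RpL15 at rank 9490 and RpL7-like at rank 8437, and those just outside it were RpL21 and RpL7A.

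Copies of duplicated sets were compared next. By their names, 27 members formed 13 sets, and 19 of the 27 copies (70.4%) had an IDR summit. Among the strongest peaks of the replicates the share was 63.0 ± 7.41% for copies of duplicated sets, against 93.4 ± 2.31% for single genes (SD, n = 3 each). In 5 sets every copy had a summit in the IDR list, in 8 sets some copies had one and others had none, and in no set were all copies without one.

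In 7 of the 8 split sets, those described here, the copy or copies with a summit were RpL10Ab at rank 3259, RpL22 at 1801, RpL37-1 at 6076, RpS10b at 2573, RpS15Aa at 3156, RpS19a at 5984, and RpS28b and RpS28a at 3221 and 5438. Their partners were weak or unlisted. RpL10Aa and RpL37-2 had no summit at a start in any of the 5 lists, and the IDR summit nearest to a start of RpL10Aa was 50417 bp away. RpL22-like, RpS10a and RpS28-like had a summit in replicate 1 alone, at ranks 26617, 12145 and 13644. RpS15Ab had ranks of 14870 and 20348 in replicates 2 and 3 and no summit in replicate 1. RpS19b, known from the germ line, ranked 13729, 23210 and 14058 in the 3 replicates. In each replicate in which both partners of one of the 2-copy sets among them were listed, the copy with the IDR summit ranked ahead of the copy without one. The IDR list was derived from these same replicates, so this order is not independent of the split.

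The 5 sets with IDR summits at every copy were RpL34, RpL24, RpL7, RpLP0 and RpS14. RpL34b at rank 302 and RpL34a at 953 were both among the strongest members. In the sets of RpL24 (rank 1428) and RpL24-like (5721), RpL7 (803) and RpL7-like (8437), and RpLP0 (1260) and RpLP0-like (7080), the copy named -like was the weaker. The proteins most like these 3 in Saccharomyces cerevisiae, Rlp24, Rlp7 and Mrt4, are factors of ribosome assembly. The summit of RpL24-like lay 42 bp from a start of CG5276, that of RpL7-like 95 bp from CG34164 and that of RpLP0-like 46 bp from 14-3-3zeta. The lists cannot assign these peaks to either gene. RpS14a and RpS14b, tandem copies on the X chromosome, stood at ranks 3296 and 8121. The weaker copies were uneven over the replicates. RpL7-like had no summit in replicate 1 and ranks of 6791 and 7029 in replicates 2 and 3. RpL24-like ranked 16542, 4024 and 5057, RpLP0-like 11706, 7327 and 4690, and RpS14b 6354, 12537 and 5598 in replicates 1, 2 and 3. When an IDR peak had to overlap one of the strongest peaks of all 3 replicates, 12 of the 13 sets were split. Every copy of these 5 sets did have a summit in the whole pooled list and among the strongest peaks of replicate 3. Summits at every copy thus depended on the list and on how strict the overlap rule was.

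**Figure D3:**
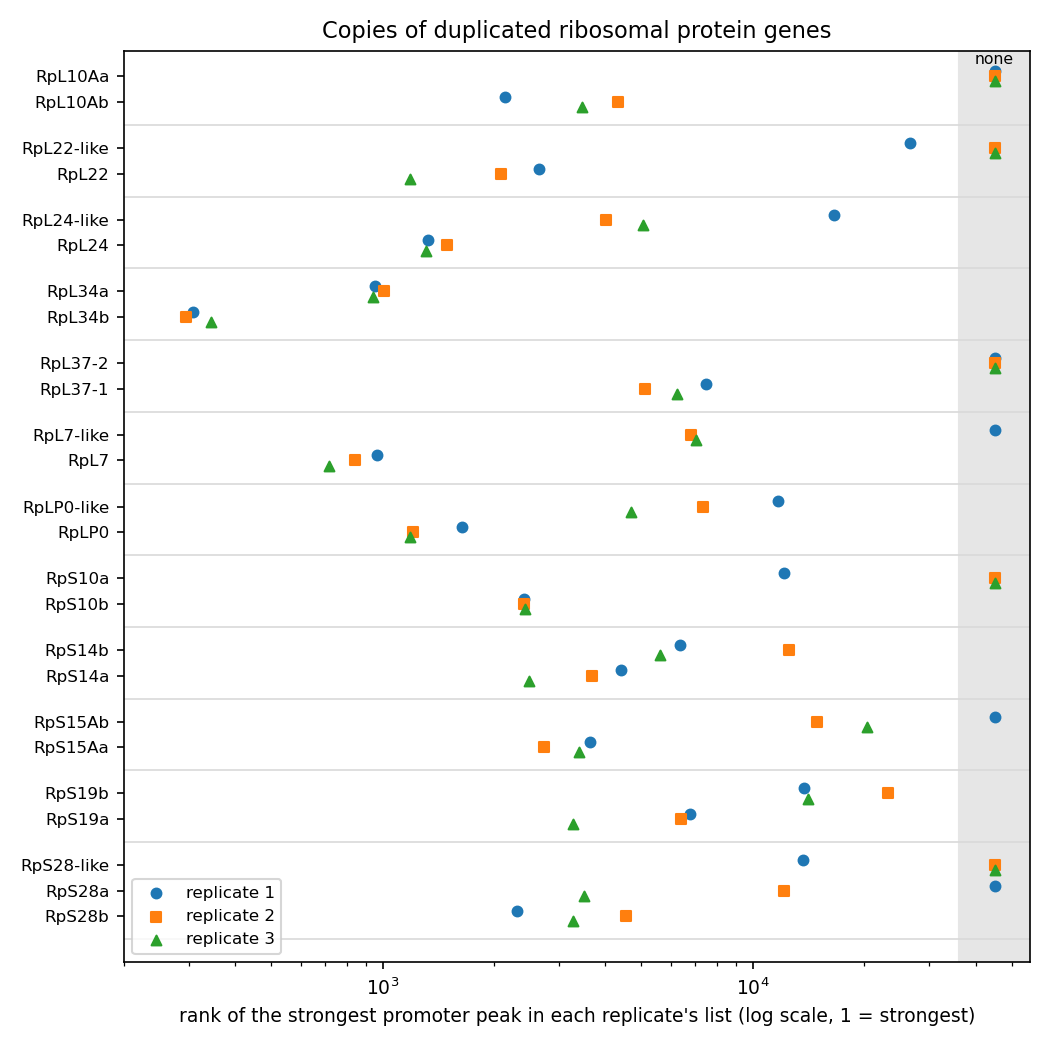
Rank of the strongest promoter peak of each of 25 copies in 12 of the 13 duplicated sets (log scale, strongest at the left) in replicates 1, 2 and 3, with copies of 1 set between grey lines and the weaker copy above the stronger. Points in the grey band had no summit within 500 bp of a start in that replicate, as was the case for RpL10Aa and RpL37-2 in all 3 replicates.

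Protein identity ranged widely both in split sets and in sets with IDR summits at every copy. Amino acid identity between copies came from a global alignment of the translated coding sequences. It was counted over the whole alignment, gaps included, so copies of unequal length score lower. In sets with IDR summits at every copy it was 79.5% for RpL34, 100% for RpS14, 18.1% for RpLP0, 27.8% for RpL24 and 32.7% for RpL7. In split sets it was 41.0% for RpL22, 63.6% for RpL10A, 65.4% for RpS19, 72.0% for RpL37, 73.6% for RpS10 and 97.7% for RpS15A. In the 3-copy RpS28 set it was 81.5% between RpS28a and RpS28b, 36.8% between RpS28-like and RpS28a and 38.2% between RpS28-like and RpS28b. How reads that match both copies of a near-identical pair such as RpS14a and RpS14b were placed is not known here.

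The starts of copies are shown for 3 split sets and for RpS14a and RpS14b, which encode identical proteins. Each run is 61 bases, with 40 bases before the start of the canonical transcript and 20 after it, written 5′ to 3′ on the strand of the gene in the same RefSeq assembly. Capitals mark CTTT, the core of the TCT element, where its C lay within 10 bases of an annotated start. The windows were chr3L:11822811-11822871 on the plus strand for RpL10Ab, chr3R:15037326-15037386 on the plus strand for RpL10Aa, chrX:16637854-16637914 on the plus strand for RpS19a, chr3R:23933510-23933570 on the minus strand for RpS19b, chrX:19598000-19598060 on the plus strand for RpS10b, chr3R:27652720-27652780 on the plus strand for RpS10a, chrX:7933702-7933762 on the plus strand for RpS14a, chrX:7934858-7934918 on the plus strand for RpS14b.
RpL10Ab: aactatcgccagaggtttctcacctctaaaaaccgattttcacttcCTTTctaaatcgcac
RpL10Aa: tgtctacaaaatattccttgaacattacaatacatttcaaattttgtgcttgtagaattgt
RpS19a: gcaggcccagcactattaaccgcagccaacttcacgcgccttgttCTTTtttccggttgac
RpS19b: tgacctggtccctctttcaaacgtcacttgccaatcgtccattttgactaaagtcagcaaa
RpS10b: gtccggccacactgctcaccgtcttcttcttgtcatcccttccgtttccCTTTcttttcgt
RpS10a: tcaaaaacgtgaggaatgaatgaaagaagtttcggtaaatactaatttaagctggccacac
RpS14a: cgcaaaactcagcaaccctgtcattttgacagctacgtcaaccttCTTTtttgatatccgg
RpS14b: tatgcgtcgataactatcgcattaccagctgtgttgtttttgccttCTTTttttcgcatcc

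RpL10Ab, RpS19a and RpS10b, which had an IDR summit, all carried the TCT core at the start. Their partners RpL10Aa, RpS19b and RpS10a carried none; these sets were picked to show the contrast, and the counts over all copies follow. Both RpS14a and RpS14b carried the core within different surrounding sequence.

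The TCT core was a shared feature of the members that had not been used to choose them. It was present at a start of 76 of 93 members (81.7%), against 14.9% of all protein-coding genes and 17.9% of the protein-coding genes with an IDR summit. Its C lay a median of 4 bases after the annotated start. The core was found at 47 of 54 large-subunit and 29 of 39 small-subunit genes. Among the members it was found at 70 of 81 (86.4%) with an IDR summit and 6 of 12 without one. Among copies of duplicated sets it was found at 15 of 19 with an IDR summit and 3 of 8 without one. With the C required within 5 bases, the counts were 58 of 93 members (62.4%), against 8.06% of all protein-coding genes. A match is a description of these letters and was not tested against binding.

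Known promoter sequences were then counted within 50 bp of the strongest summits, by exact match on either strand. The DRE was present at 11 of 81 member summits (13.6%), against 5.29% of the 4516 IDR summits at promoters. Motif 1 was present at 7 (8.64%), against 3.37%, and the Motif 6 core at 8 (9.88%), against 2.77%. The Motif 6 core was added after the sequences had been seen. The E-box CACGTG, a site of Myc, was at 4 member summits (4.94%), against 1.06% of IDR promoter summits. CGATA, a core bound by BEAF-32 that is also contained in the DRE, was at 31 (38.3%), against 25%.

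Other elements had lower or similar shares at the members. GAGAG, the core bound by GAGA factor, was at 2 member summits (2.47%), against 9.23% of IDR promoter summits, and TATAAA at 11 (13.6%), against 22%. The initiator TCAGT was at 13 (16.0%), against 16.9%, and CAGCTG at 5 (6.17%), against 5.23%. The Zelda site CAGGTAG was at 0 of 81, against 0.354%. AAGTATTA was the 8-base sequence most frequent at the other IDR summits relative to flanks 300 bp away (111 against 17 of 9691). It was also at 0 of 81, against 1.06% of IDR promoter summits. Both CAGGTAG and AAGTATTA were rare at IDR promoter summits, so a count of 0 does not set the members apart. DRE and Motif 1 occurred together at 0 of 81 member summits, Motif 1 and the Motif 6 core at 4, and DRE and the Motif 6 core at 2. At 61 of 81 member summits none of these 3 was found. Such joint counts were not made over all IDR promoter summits, so they have no background here.

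In the 100 bases upstream of the canonical start, counted for every member whether or not it had a peak, the DRE was present at 23 of 93 members (24.7%), against 6.02% of all protein-coding genes. CGATA was found there at 51 members (54.8%), against 27.9%, and GAGAG at 2 (2.15%), against 13.6%. Members with the DRE at the summit had a median IDR rank of 2619 (n = 11), against 2870 for those without it (n = 70). The medians were 1883 with Motif 1 (n = 7) and 2870 without it (n = 74), and 1585 with the Motif 6 core (n = 8) and 3045 without it (n = 73). The groups with Motif 1 and with the Motif 6 core had 4 members in common, so these contrasts are not separate. Such medians were not computed over all IDR promoter summits.

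**Figure D4:**
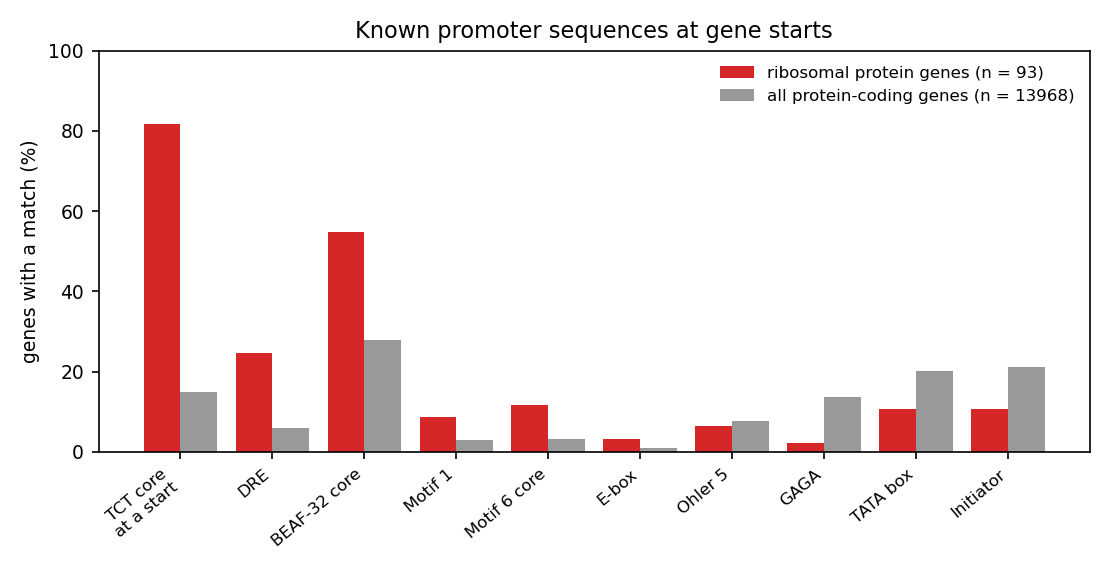
Share of genes, in percent, with an exact match to each named sequence, for the 93 ribosomal protein genes (red, left bars) and all 13968 protein-coding genes (grey, right bars). The TCT core was sought within 10 bases of any start (81.7% against 14.9%) and the other sequences in the 100 bases upstream of the canonical start.

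Neighbouring genes bear on these counts, because a summit between close starts counts for both genes. Of the 93 members 49 had a start of another gene within 500 bp, and 47 of these 49 (95.9%) had an IDR summit, against 58.0% of the 4805 protein-coding genes with such a neighbour. Of the 21 members with no other start within 1 kb, 15 (71.4%) had an IDR summit, against 21.6% of the 7240 protein-coding genes without one. The members' share was thus above the background in both classes. The strongest peaks of the 81 members were 81 distinct peaks. Of their summits 72 (88.9%) lay at least as near to the member's own start as to any other gene's start. The share was 72.8% for all protein-coding genes with a summit.

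The 9 exceptions were RpL13, RpL22, RpL23, RpL24-like, RpL29, RpL34b, RpS14a, RpS28a and RpS6. The summit of RpL34b, the strongest member, lay 157 bp upstream of its own start and 112 bp from that of CG8132. The summit of RpL29 lay 132 bp upstream of its start and 10 bp from that of Sgf29. The summit of RpS6 lay 89 bp from the start of bys, a ribosome assembly gene. RpL13 shared its peak, at rank 1415, with Dref, whose start was 38 bp from the summit. More widely, the strongest peak of 39 of the 81 members also had its summit within 500 bp of a start of another protein-coding gene, and the lists cannot assign such a peak to either gene.

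Many ribosomal protein genes carry small nucleolar RNAs, which guide modification of ribosomal RNA, within their introns. Of the 29 members with a small nucleolar or small nuclear RNA gene within their span 28 (96.6%) had an IDR summit, and of the 64 members without one 53 (82.8%) did. The 8 copies of duplicated sets without an IDR summit were all among these 64, so the classes also differ in duplicated copies. The share over all protein-coding genes with such an RNA gene was not counted. By chromosome arm, an IDR summit was found at 15 of 19 members on 2L, against 34.1% of the protein-coding genes there, and at 18 of 21 on 2R, against 34.0%. The counts were 14 of 14 on 3L, against 36.8%, 19 of 23 on 3R, against 36.6%, and 14 of 15 on X, against 36.8%.

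Other genes of ribosomes and their assembly were counted in the same way. The shares over all protein-coding genes were 35.6% in the IDR list and 35.6 ± 1.26% among the strongest peaks of the replicates (SD, n = 3). Mitochondrial ribosomal proteins serve the separate ribosome of that organelle. Of their 73 genes 50 (68.5%) had an IDR summit, and their share among the strongest peaks of the replicates was 68.0 ± 5.54% (SD, n = 3). Their summits had a median position of −126.5 bp, near that of all protein-coding genes. The TCT core was carried by 5 of 73 (6.85%), against 14.9% of all protein-coding genes. Of 28 ribosome biogenesis genes 22 (78.6%) had an IDR summit, against 35.6% of all protein-coding genes. Their share among the strongest peaks of the replicates was 75 ± 7.14% (SD, n = 3). The strongest of them was eIF6, which keeps the large subunit from joining early, at rank 241, with replicate ranks of 158, 282 and 343. NHP2, a protein of small nucleolar particles, was at rank 1165, Non1 at 1665 and nop5 at 1671. Of the biogenesis genes bys and Mybbp1A had their strongest peak in common with the members RpS6 and RpL36.

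Of 7 genes for factors linked to ribosomal protein gene control, 4 (57.1%) had an IDR summit, against 35.6% of all protein-coding genes. Their share among the strongest peaks of the replicates was 76.2 ± 8.25%, against 35.6 ± 1.26% of all protein-coding genes (SD, n = 3 each). M1BP, the Motif 1 binding factor, was at rank 517, with replicate ranks of 588, 553 and 465. Irbp18, at rank 640, and Xrp1, at rank 7820, encode partner bZIP proteins that act in Minute cells. Dref was at rank 1415, in the peak it has in common with RpL13. Trf2, Myc and crc had pooled peaks below the IDR list, at ranks 12106, 15747 and 11135. In replicates 1, 2 and 3 Trf2 ranked 9170, 10927 and 8832, crc 9058, 7876 and 14079, and Myc 16811, 12364 and 27113, so Trf2 and crc were each among the strongest peaks of 2 replicates.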

How the data were processed

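Anti-GFP ChIP-seq peak lists of 3 biological replicates were used. Per the labels reads were placed on dm6. Per the text deposited with the lists, peaks were called per replicate against 1 control file and on all replicates pooled, and the IDR list was derived from these. Aligner, peak caller and the threshold behind the IDR list are not given in the sources used here. Peaks were ranked by the deposited signal value. The deposited −log10 q was 4.34 for every peak of the IDR list, while the pooled list reached down to 0.262 and the replicate lists to between 0.0776 and 0.458. The replicate and pooled lists appeared capped in length, so absence from a list does not show absence of binding.

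Genes and starts came from Ensembl release 115 for the same assembly, and all peak ends lay within its chromosome lengths. Where a gene had several summits the strongest counted. A replicate's strongest peaks were its 9789 highest by signal. Shares are means ± SD over replicates, and subunits were compared by an exact sign-flip permutation test. No test was made over genes, which are not replicates. Proteins were aligned globally (BLOSUM62, gap opening 11 and extension 1). The minimum of 100 summit windows for the 8-base sequence was set after seeing the data. Members and lists were chosen with earlier results of these data known. Genes named in the text are the 10 strongest members of each subunit, every member without an IDR summit, every duplicated copy, sta and the members next to the end of the IDR list; RpLP1, RpLP2, RpL5, RpL11, RpS6 and the exceptions among neighbours were named after their values were seen. Some genes that this rule covers are not reported here. One listed biogenesis gene, CG7637, was not found by that symbol. Counting was tested on simulated data. Alternatives varied the window, starts, list, replicates and motif distance. Python 3.11.15, pandas 2.3.3, SciPy 1.17.1 and Biopython 1.88 were used.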

Additional observations from a re-analysis of the deposited data

How the results depend on the processing

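The number of members with a summit, the median signal, the median position and the number of members with the TCT core stayed within 1.5 times or the replicate spread under the alternatives run (17, 9, 12 and 2 alternatives), with 1 exception. Among the 21 members with no start of another gene nearby (within 1 kb), 15 had a summit. Fewer genes were counted there, and the share was also lower, at 71.4% against 87.1% of all members. Requiring overlap with a strongest peak of both remaining replicates, with each replicate left out in turn, left between 71 and 75 members with a summit, a large minus small difference between 3.42 and 11.54 percentage points, and between 9 and 12 split sets. The large minus small difference, 4.27 percentage points in the IDR list, was 13.53 in the upper part of that list. It reversed to −0.43 in the whole pooled list and in the whole lists of replicates 1 and 2, and to −3.85 among the strongest peaks of replicate 3. The 8 split sets became 5 in the whole pooled list and in the whole lists of replicates 1 and 2, which hold weaker peaks at further copies, and 2 when only members with no start of another gene within 1 kb were kept, which left 2 sets. The DRE was at 4 member summits within 25 bp and 21 within 100 bp, against 11 within 50 bp, and Motif 1 was at 3 within 25 bp, against 7 within 50 bp. A wider window holds more bases, so such counts grow with it. No paired analysis was possible because there is 1 group of samples, with no second group to pair; the subunits are sets of genes compared within each replicate. With unknown depth, 3 replicates and lists of limited length, a member outside a list can only be called unlisted.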
